A study of Homo sapiens with 12 samples.

Results

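The 45 genes described here encode the machinery of G2 and mitosis. They were chosen by symbol for that role, with earlier results of these data known. Each symbol matched 1 row of a table of 58233 genes. All 45 passed the filter on low counts, with 15749 genes tested in all, and the lowest count of any of them in any library was 263, for SPC25. MCF10-A, an immortalised, non-tumour line of human mammary epithelium, was studied as derivatives named Vector, B4-4 and Addback. For each of these 3 there were 2 libraries labelled NA and 2 labelled EDTA, which binds calcium and magnesium ions, and so 12 libraries in all. Every group had been trypsinized and held for 3 hours without serum on plates coated with poly-HEMA, which cells cannot grip, so no group stands for attached cells. The labels do not say what NA stands for, at what dose or when EDTA was given, how B4-4 and Addback were made or whether they are clones. The series asks what integrin α6β4, a receptor for laminin, does in detached cells.

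Libraries held 15685376 to 22156173 counts. ITGB4, the gene of the β4 chain, was at 1678 to 1850 CPM, counts scaled to a common library size, in Vector. It was at 182 and 395 CPM in B4-4 NA, 372 and 390 in B4-4 EDTA, and 1060 to 1525 in Addback. The libraries labelled B4-4 thus carried the least ITGB4 RNA, and the B4-4 NA pair lay far apart. All 8 basal epithelial markers checked, among them KRT5, KRT14 and TP63, were present in each library, with a summed level of 9694 to 15160 CPM. The 9 fibroblast markers summed to 15.5 to 65.9 CPM and the 8 blood and endothelial markers to 10.3 to 85.9 CPM, with CD3E, CDH5 and HBB at 0 throughout. Nothing in the labels says whether the 2 libraries of a group came from separate cultures, so p-values cover no more than the spread among these libraries, and that spread may be technical. RNA was taken from whole cultures, so fewer cells in G2 or mitosis and less of these RNAs per cell cannot be told apart.

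Genes of this group are transcribed late in the cell cycle and are largely silent in G1 and in resting cells. The MuvB complex is their shared switch: with p130 or p107 it forms the repressor DREAM, and with B-MYB (MYBL2) and then FOXM1 it forms an activator. MuvB reaches many of these promoters through the cell cycle genes homology region, CHR, while CCAAT boxes are bound by NF-Y. The proteins made then take the cell from G2 through division: cyclin B with CDK1 starts mitosis, the spindle checkpoint delays anaphase until kinetochores are attached, and the anaphase-promoting complex with CDC20 ends it.

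Because most of these genes moved together, their promoters were searched for the letters of both elements. RefSeq windows on GRCh38.p14, from 250 bases before to 50 bases after a start site, were found for 38 of the 45 genes, with 48 windows in all. The CHR letters TTTGAA, on either strand, were in at least 1 window of 28 of the 38 (73.7%), against 18.2% of 27305 genes with windows of that length. The CCAAT letters, on either strand, were in 32 (84.2%) against 39.7%, and both stood in the same window in 24 (63.2%) against 7.26%. The genes compared with were not limited to the 15749 tested here, so they are not matched for expression or gene type. The matches of both kinds shared a base in 1 of the 48 windows. Such a match is a run of letters and not a measured binding site. PLK1, KIF23 and CDC20 are shown because they changed with EDTA in every derivative, CCNB2 because it holds both kinds of letters and was called changed with EDTA in none, and CDC25B because its level ran against the rest. Each line gives the 120 bases before a start site, 5′ to 3′ on the gene's strand, all on the plus strand here, with CHR and CCAAT letters in capitals. In order, they lie at chr16:23678769-23678888, chr15:69414229-69414348, chr1:43358861-43358980, chr15:59105026-59105145 and chr20:3796190-3796309.
PLK1: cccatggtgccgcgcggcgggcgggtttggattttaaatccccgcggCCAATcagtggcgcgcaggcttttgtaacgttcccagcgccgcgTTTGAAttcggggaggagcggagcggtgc
KIF23: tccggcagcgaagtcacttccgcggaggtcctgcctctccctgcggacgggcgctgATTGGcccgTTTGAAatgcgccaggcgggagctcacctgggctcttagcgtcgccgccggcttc
CDC20: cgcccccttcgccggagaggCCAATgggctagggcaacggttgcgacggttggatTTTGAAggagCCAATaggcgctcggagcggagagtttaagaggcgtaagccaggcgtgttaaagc
CCNB2: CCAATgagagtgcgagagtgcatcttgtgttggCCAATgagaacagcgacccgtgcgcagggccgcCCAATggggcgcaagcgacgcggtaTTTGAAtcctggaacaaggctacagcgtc
CDC25B: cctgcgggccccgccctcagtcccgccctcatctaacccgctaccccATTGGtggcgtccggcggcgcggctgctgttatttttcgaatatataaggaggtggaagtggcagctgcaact

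The PLK1, KIF23, CDC20 and CCNB2 stretches each hold 1 run of CHR letters. The CDC25B stretch holds 1 run of CCAAT letters alone, and CHR letters were in none of the 4 windows listed for CDC25B. Among the 10 genes with no CHR letters in any window were also AURKB, BUB1, CCNA2, CCNB1, CENPE, KIF20A, KIF2C, NEK2 and PTTG1, of which BUB1, CCNA2 and CCNB1 changed with EDTA in every derivative.

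EDTA moved the G2/M genes one way in Vector and the other way in B4-4 and Addback. In Vector, 28 of the 45 were lower with EDTA than with NA, in B4-4 21 were higher and 2 lower, and in Addback 27 were higher. A gene is called changed where the p of edgeR's quasi-likelihood test, adjusted by Benjamini-Hochberg across the 15749 genes, was under 0.05. In all tested genes the shares called were 6.36% higher and 8.98% lower in Vector, 9.88% higher and 10% lower in B4-4, and 8.64% higher and 8.29% lower in Addback. The median log2 fold change of the 45 was -0.54 in Vector, 0.34 in B4-4 and 0.44 in Addback, where that of all tested genes was 0.0, -0.01 and 0.01. In Vector 0 of the 45 were called higher by edgeR and by DESeq2, and 1 was higher at an unadjusted p under 0.05 with either tool. In Addback 0 were called lower by both tools, with 1 lower at that unadjusted p.

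Before any fit, the same order showed in the libraries themselves. The summed level of the 45 genes was 8266 and 8223 CPM in Vector NA and 6224 and 5820 CPM in Vector EDTA. It was 6134 and 5853 CPM in B4-4 NA and 7676 and 7681 CPM in B4-4 EDTA. Addback NA held 5319 and 5397 CPM, and Addback EDTA 6742 and 7300 CPM. Vector NA was thus the highest group and Addback NA the lowest, and EDTA and NA did not overlap in any derivative. Taking each gene against its own mean over the 12 libraries, 43 and 45 of the 45 lay above it in Vector NA, and 3 and 1 in Addback NA.

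**Figure D1:**
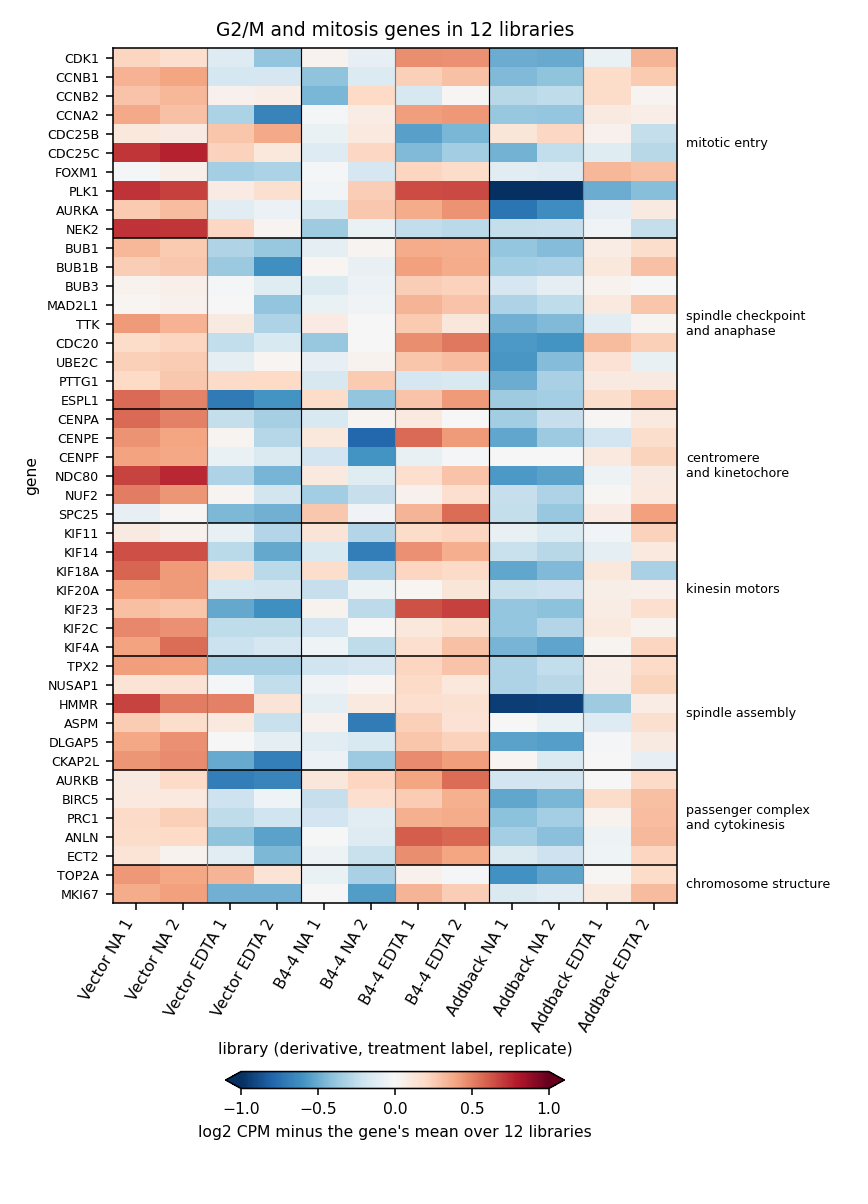
Level of each of the 45 genes (vertical axis, grouped by role) in each of the 12 libraries (horizontal axis), as log2 CPM minus the gene's mean over all libraries, red higher and blue lower. Vector NA and B4-4 EDTA are mostly red and Addback NA mostly blue, while CDC25B, in the mitotic entry group, is reddest in Vector EDTA and bluest in B4-4 EDTA.

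Among the genes of mitotic entry, 7 of 10 fell with EDTA in Vector, 5 rose and 2 fell in B4-4, and 6 rose in Addback. CCNB1 (chr5:69167010-69178245), cyclin B1, was at 326 and 336 CPM in Vector NA, 226 and 228 in Vector EDTA, 194 and 233 in B4-4 NA, 301 and 314 in B4-4 EDTA, 188 and 194 in Addback NA, and 291 and 306 in Addback EDTA. With EDTA, every Vector library was below, and every B4-4 and Addback library above, its NA counterparts. The log2 fold changes were -0.54 (SE 0.10, adjusted p = 0.00311), 0.53 (SE 0.10, adjusted p = 0.00388) and 0.64 (SE 0.10, adjusted p = 0.00121) in that order, and each was called without any single library.

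CDK1, the kinase that cyclin B activates, had 150 and 145 CPM in Vector NA and 118 and 98.1 in Vector EDTA, against 132 and 122 in B4-4 NA and 178 and 177 in B4-4 EDTA. In Addback it went from 91.6 and 91.1 with NA to 123 and 163 with EDTA. Its NA and EDTA libraries did not overlap in any derivative, with log2 fold changes of -0.45, 0.49 and 0.65 (SE 0.13 each). The adjusted p was 0.0337, 0.0218 and 0.00625. In Vector the call was lost without any one of the Vector, Addback NA or B4-4 EDTA libraries, in B4-4 without B4-4 EDTA 1, B4-4 EDTA 2 or B4-4 NA 2, and in Addback without Addback EDTA 2, Addback NA 1 or Addback NA 2. CCNA2, cyclin A2, and FOXM1, the transcription factor that drives many of these genes, also fell in Vector and rose in B4-4 and Addback. CCNA2 changed by log2 -0.82, 0.40 and 0.46, and FOXM1 by -0.35, 0.30 and 0.43. Their B4-4 calls were both lost without B4-4 EDTA 1 or B4-4 EDTA 2, and that of FOXM1 also without B4-4 NA 2 or any Vector or Addback NA library. Their Addback calls were lost without Addback NA 1 or Addback NA 2, and that of CCNA2 also without Addback EDTA 2, and FOXM1 in Vector was lost without any Vector library.

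PLK1 (chr16:23677656-23690367), a kinase that acts from mitotic entry to cytokinesis, was at 235 and 229 CPM in Vector NA, 151 and 159 in Vector EDTA, 140 and 169 in B4-4 NA, 224 and 225 in B4-4 EDTA, 65.5 and 63.8 in Addback NA, and 101 and 106 in Addback EDTA. EDTA thus separated the libraries of every derivative, and all 4 Addback libraries lay below all the others. Its log2 fold change with EDTA was -0.58 in Vector (adjusted p = 0.00243), 0.54 in B4-4 (adjusted p = 0.00396) and 0.68 in Addback (adjusted p = 0.00114), with SE 0.10 each, and every single omission kept these calls. AURKA, the kinase that activates PLK1, passed the test in Addback, at 0.68 (lost without Addback NA 1), with -0.37 in Vector (adjusted p = 0.072) and 0.34 in B4-4 (adjusted p = 0.0805) short of it. CCNB2, cyclin B2, passed in no derivative, with values of -0.26, 0.02 and 0.37.

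Of the remaining 3 entry genes, CDC25B ran against the rest, while CDC25C and NEK2 were called in the direction of most genes in Vector alone. CDC25B (chr20:3786772-3806121), a phosphatase that activates CDK1, was at 330 and 325 CPM in Vector NA and 373 and 399 in Vector EDTA, 293 and 329 in B4-4 NA and 211 and 224 in B4-4 EDTA, and 335 and 355 in Addback NA and 316 and 260 in Addback EDTA. It was therefore highest in Vector EDTA and lowest in B4-4 EDTA, and its EDTA difference had the opposite sign to that of most of the 45 in each derivative. The fall in B4-4 was log2 -0.51 (SE 0.11, adjusted p = 0.00708) and was lost without B4-4 EDTA 1. The differences in Vector, 0.24, and in Addback, -0.26, had adjusted p-values of 0.154 and 0.112.

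CDC25C, a related phosphatase, had 54.5 and 56.6 CPM in Vector NA, 38.8 and 35.7 in Vector EDTA, 30.3 and 38.3 in B4-4 NA, 24.4 and 26 in B4-4 EDTA, 23.9 and 27.9 in Addback NA, and 30.4 and 27.3 in Addback EDTA. Only its Vector NA libraries stood high, and NA and EDTA overlapped in Addback. It fell in Vector by log2 -0.58 (adjusted p = 0.0112) and in B4-4 by log2 -0.44 (adjusted p = 0.0364). The first call was lost without any one Vector library, and the second without any one of the Vector NA, Addback NA or B4-4 EDTA libraries or B4-4 NA 2. NEK2, a centrosome kinase, was at 165 and 164 CPM in Vector NA, 115 and 102 in Vector EDTA, 78 and 95.4 in B4-4 NA, 84.2 and 82.7 in B4-4 EDTA, 84.6 and 85.3 in Addback NA, and 97.7 and 84.8 in Addback EDTA. It too was high in Vector NA, fell there by log2 -0.60 (adjusted p = 0.00436), and overlapped between NA and EDTA in B4-4 and Addback.

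**Figure D2:**
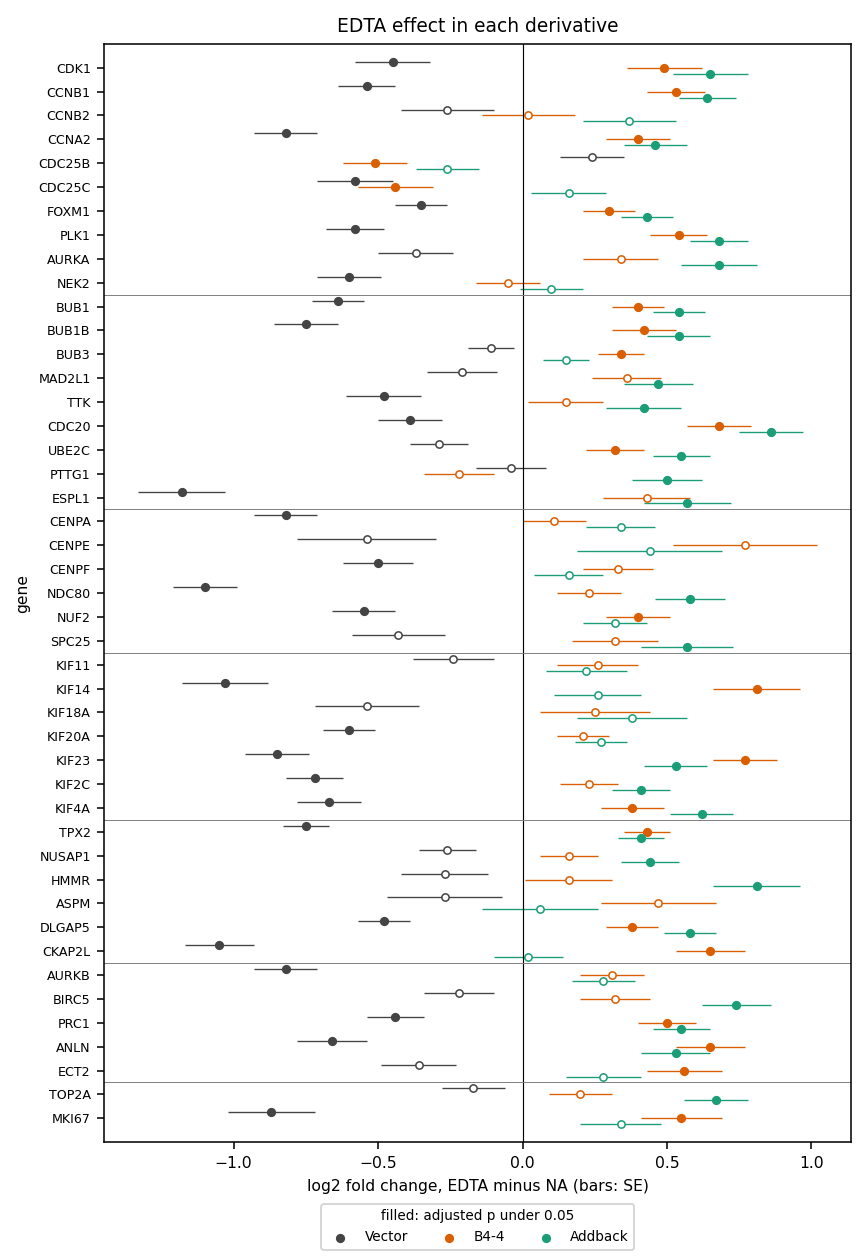
Log2 fold change of EDTA against NA (horizontal axis, bars showing 1 SE) for each of the 45 genes (vertical axis, by role) in Vector, B4-4 and Addback, with filled points for an adjusted p under 0.05. Nearly all Vector points lie left of 0 and nearly all B4-4 and Addback points right of it, and CDC25B has its Vector point right of the other 2.

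Of the 9 spindle checkpoint and anaphase genes, 5 fell in Vector, 5 rose in B4-4 and 8 rose in Addback. CDC20 (chr1:43358955-43363203), the activator that the checkpoint restrains, was at 223 and 228 CPM in Vector NA and 166 and 177 in Vector EDTA, 151 and 196 in B4-4 NA and 271 and 283 in B4-4 EDTA, and 132 and 130 in Addback NA and 244 and 232 in Addback EDTA. Its level with EDTA was above every NA library of its own derivative in B4-4 and Addback and below both in Vector. The rise in Addback, log2 0.86 (SE 0.11, adjusted p = 0.000525), had the smallest p of the 45 there, and the rise in B4-4 was 0.68 (adjusted p = 0.00234). Both held without any single library. The fall in Vector, log2 -0.39 (adjusted p = 0.0349), was lost without any one of the Vector, Addback NA or B4-4 EDTA libraries.

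BUB1B, the checkpoint protein BubR1, had 76.3 and 77.7 CPM in Vector NA, 49.8 and 42.1 in Vector EDTA, 65.3 and 61.3 in B4-4 NA, 85.5 and 83.3 in B4-4 EDTA, 50.8 and 51.4 in Addback NA, and 69.4 and 78.9 in Addback EDTA. Again no NA library overlapped an EDTA library of its derivative. The log2 fold changes were -0.75 (adjusted p = 0.000817), 0.42 (adjusted p = 0.0191) and 0.54 (adjusted p = 0.00614), of which the B4-4 call was lost without B4-4 EDTA 1 or B4-4 EDTA 2 and the Addback call without Addback EDTA 2 or Addback NA 1. BUB1, its partner kinase, changed by -0.64, 0.40 and 0.54, the B4-4 call being lost without B4-4 EDTA 1 or B4-4 EDTA 2. ESPL1, the protease separase that cuts cohesin at anaphase, had the lowest value of the 45 in Vector, log2 -1.18 (SE 0.15, adjusted p = 0.000396), and rose in Addback by 0.57, a call lost without Addback EDTA 2 or any one of the Addback NA or Vector NA libraries.

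PTTG1 (chr5:160421822-160428744) encodes securin, the inhibitor of separase. It rose with ESPL1 in Addback but was not called in Vector, where ESPL1 fell, and neither was called in B4-4. Its levels were 190 and 199 CPM in Vector NA, 189 and 190 in Vector EDTA, 148 and 198 in B4-4 NA, 147 and 149 in B4-4 EDTA, 117 and 132 in Addback NA, and 176 and 176 in Addback EDTA. Vector NA and EDTA lay within 10 CPM of each other, and the B4-4 NA libraries were far apart. PTTG1 rose in Addback by log2 0.50 (SE 0.12, adjusted p = 0.0163), a call lost without Addback EDTA 2 or Addback NA 1. It differed by -0.04 in Vector (adjusted p = 0.871) and by -0.22 in B4-4 (adjusted p = 0.215). PTTG1 has near-identical gene copies, so its counts are uncertain.

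For the 6 centromere and kinetochore genes, 4 fell in Vector, 1 rose in B4-4 and 2 rose in Addback. NDC80 (chr18:2571511-2616635), the kinetochore's microtubule-binding subunit, had 59.5 and 62.9 CPM in Vector NA, 30.1 and 27 in Vector EDTA, 39.8 and 34.2 in B4-4 NA, 41.8 and 45.3 in B4-4 EDTA, 25 and 25.7 in Addback NA, and 35.9 and 39.6 in Addback EDTA. Both Vector EDTA libraries lay far below both Vector NA libraries. The fall was log2 -1.10 (SE 0.11, adjusted p = 0.000104), the smallest p of the 45 in Vector, and held without any single library. NDC80 rose in Addback by 0.58 (adjusted p = 0.00648, lost without Addback NA 1), with 0.23 in B4-4 (adjusted p = 0.168).

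CENPE, a kinesin that moves chromosomes to the spindle's middle, was at 154 and 148 CPM in Vector NA, 115 and 92.3 in Vector EDTA, 121 and 65.3 in B4-4 NA, 167 and 151 in B4-4 EDTA, 78.8 and 87.8 in Addback NA, and 98.8 and 127 in Addback EDTA. NA and EDTA did not overlap in any derivative, yet the B4-4 NA pair differed by 1.85 times, the widest gap among the 45. No EDTA difference of CENPE passed the test, with log2 -0.54, 0.77 and 0.44 and adjusted p-values of 0.17, 0.0555 and 0.259.

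Of the 7 kinesin motors, 5 fell in Vector, 3 rose in B4-4 and 3 rose in Addback. KIF23 (chr15:69414246-69448427), a motor of the central spindle, was at 123 and 121 CPM in Vector NA, 69.7 and 65.1 in Vector EDTA, 102 and 83.0 in B4-4 NA, 155 and 160 in B4-4 EDTA, 76.3 and 74.8 in Addback NA, and 105 and 112 in Addback EDTA. Its lowest libraries were Vector EDTA and its highest B4-4 EDTA. The log2 fold changes were -0.85 (SE 0.11, adjusted p = 0.000326), 0.77 (SE 0.11, adjusted p = 0.000772) and 0.53 (SE 0.11, adjusted p = 0.00658). The Addback call was lost without Addback NA 1 or Addback NA 2, and the B4-4 value had the smallest p of the 45 there.

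KIF20A, which acts with KIF23 in cytokinesis, had 239 and 241 CPM in Vector NA, 159 and 158 in Vector EDTA, 153 and 174 in B4-4 NA, 182 and 196 in B4-4 EDTA, 154 and 156 in Addback NA, and 187 and 186 in Addback EDTA. Here Vector NA stood apart from all other libraries, and only the fall in Vector passed, at log2 -0.60 (adjusted p = 0.00119), with 0.21 and 0.27 in B4-4 and Addback (adjusted p = 0.115 and 0.0611). KIF11, the motor that pushes spindle poles apart, was at 160 and 155 CPM in Vector NA, 143 and 123 in Vector EDTA, 165 and 123 in B4-4 NA, 171 and 175 in B4-4 EDTA, 143 and 137 in Addback NA, and 148 and 177 in Addback EDTA. KIF11 shifted in the same directions without overlap between NA and EDTA, but by -0.24, 0.26 and 0.22, none of which passed. KIF18A, which dampens chromosome movement, also passed nowhere, while KIF14 changed by -1.03 in Vector and 0.81 in B4-4, the latter lost without B4-4 EDTA 1.

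The 6 spindle assembly genes gave 3 falls in Vector, 3 rises in B4-4 and 4 rises in Addback. TPX2 (chr20:31739271-31801805), which activates AURKA on the spindle, was at 359 and 357 CPM in Vector NA and 213 and 213 in Vector EDTA, 233 and 239 in B4-4 NA and 311 and 326 in B4-4 EDTA, and 216 and 226 in Addback NA and 281 and 307 in Addback EDTA. Replicates lay close together in every group and NA and EDTA were well apart. TPX2 changed by log2 -0.75 (SE 0.08, adjusted p = 0.000154), 0.43 (SE 0.08, adjusted p = 0.00513) and 0.41 (SE 0.08, adjusted p = 0.00697). The B4-4 call was lost without B4-4 EDTA 2 and the Addback call without Addback EDTA 2 or Addback NA 1.

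DLGAP5, a spindle protein that stabilises kinetochore fibres, had 144 and 151 CPM in Vector NA, 110 and 103 in Vector EDTA, 102 and 99.1 in B4-4 NA, 133 and 129 in B4-4 EDTA, 76.0 and 75.1 in Addback NA, and 109 and 117 in Addback EDTA. It followed the pattern of TPX2, with log2 -0.48, 0.38 and 0.58, and the Addback rise (adjusted p = 0.00132) was among the 4 smallest p-values there. The Vector call was lost without Vector NA 2 and the B4-4 call without B4-4 EDTA 1 or B4-4 EDTA 2. CKAP2L, a spindle protein also called radmis, was at 83.9 and 86.1 CPM in Vector NA, 43.6 and 38.6 in Vector EDTA, 59.6 and 48.2 in B4-4 NA, 86.0 and 82.7 in B4-4 EDTA, 62.9 and 56.1 in Addback NA, and 62.2 and 58.5 in Addback EDTA. CKAP2L thus fell in Vector by -1.05 (adjusted p = 0.000162) and rose in B4-4 by 0.65 (adjusted p = 0.00371, lost without B4-4 EDTA 1), while its Addback libraries overlapped, with a difference of 0.02 (adjusted p = 0.934).

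The 5 passenger complex and cytokinesis genes gave 3 falls in Vector, 3 rises in B4-4 and 3 rises in Addback. ANLN, anillin of the contractile ring, had 307 and 309 CPM in Vector NA, 204 and 186 in Vector EDTA, 270 and 247 in B4-4 NA, 410 and 401 in B4-4 EDTA, 213 and 202 in Addback NA, and 260 and 338 in Addback EDTA. Its B4-4 EDTA libraries were the highest of all. The log2 fold changes were -0.66 (adjusted p = 0.00295), 0.65 (adjusted p = 0.00339) and 0.53 (adjusted p = 0.0099), the last lost without Addback EDTA 2, Addback NA 1 or Addback NA 2.

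AURKB and BIRC5 encode the kinase and the survivin subunit of 1 complex, the chromosomal passenger complex, and passed in different derivatives. AURKB was at 44.2 and 47.4 CPM in Vector NA, 25.7 and 26.3 in Vector EDTA, 44.9 and 48.3 in B4-4 NA, 54.6 and 61.3 in B4-4 EDTA, 36.5 and 36.5 in Addback NA, and 41.5 and 47.4 in Addback EDTA. BIRC5 was at 111 and 111 CPM in Vector NA, 90.2 and 101 in Vector EDTA, 88.8 and 117 in B4-4 NA, 124 and 133 in B4-4 EDTA, 72.5 and 75.6 in Addback NA, and 118 and 128 in Addback EDTA. AURKB was lowest in Vector EDTA and BIRC5 in Addback NA. AURKB fell in Vector by -0.82 (adjusted p = 0.000536), with 0.31 and 0.28 elsewhere (adjusted p = 0.0577 and 0.0938), and BIRC5 rose in Addback by 0.74 (adjusted p = 0.00236), with -0.22 and 0.32 elsewhere (adjusted p = 0.252 and 0.0825).

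TOP2A and MKI67, the genes of topoisomerase IIα, which untangles sister DNA, and of the proliferation antigen Ki-67, made up the chromosome structure group. MKI67 was at 601 and 619 CPM in Vector NA, 333 and 334 in Vector EDTA, 464 and 315 in B4-4 NA, 590 and 552 in B4-4 EDTA, 421 and 429 in Addback NA, and 497 and 580 in Addback EDTA. TOP2A was at 681 and 658 CPM in Vector NA, 638 and 556 in Vector EDTA, 483 and 403 in B4-4 NA, 519 and 501 in B4-4 EDTA, 331 and 350 in Addback NA, and 508 and 574 in Addback EDTA. MKI67 fell in Vector by -0.87 (adjusted p = 0.00215) and rose in B4-4 by 0.55 (adjusted p = 0.0208, lost without B4-4 EDTA 1 or B4-4 EDTA 2), and TOP2A rose in Addback by 0.67 (adjusted p = 0.00206). The others were 0.34 for MKI67 in Addback (adjusted p = 0.126), and -0.17 and 0.20 for TOP2A in Vector and B4-4 (adjusted p = 0.336 and 0.208).

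**Figure D3:**
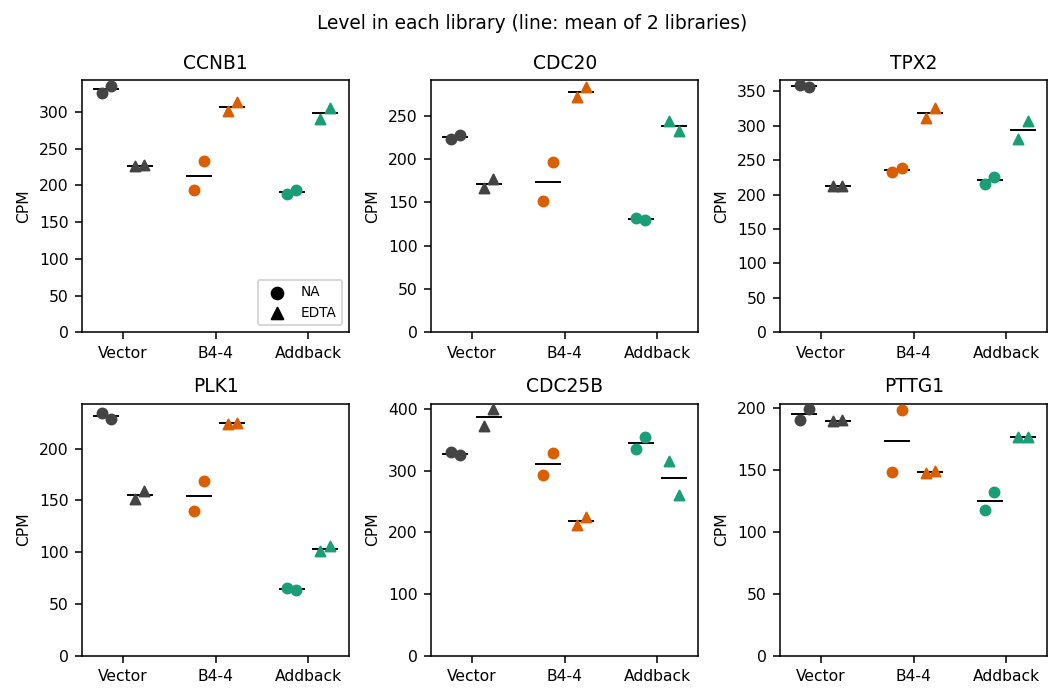
CPM (vertical axis, from 0) of 6 genes in each library, by derivative (horizontal axis), with circles for NA, triangles for EDTA and a line at the mean of the 2 libraries. CCNB1, CDC20, TPX2 and PLK1 fall with EDTA in Vector and rise in B4-4 and Addback, CDC25B is lowest in B4-4 EDTA, and PTTG1 lies at 189 to 199 in all Vector libraries.

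Across the derivatives, 14 of the 45 fell in Vector and rose in both B4-4 and Addback: ANLN, BUB1, BUB1B, CCNA2, CCNB1, CDC20, CDK1, DLGAP5, FOXM1, KIF23, KIF4A, PLK1, PRC1 and TPX2. The genes that rose in B4-4 and in Addback shared 15, which is 71.4% of the 21 in B4-4 and 55.6% of the 27 in Addback. Such joint patterns were not counted over all tested genes, so whether this sharing is particular to the 45 was not tested. ASPM, CCNB2, CENPE, KIF11 and KIF18A passed in no derivative. The EDTA libraries lay wholly below the NA libraries for 44 of the 45 genes in Vector, against 34.6% of all tested genes, and wholly above for 39 in B4-4 and 40 in Addback, against 30.2% and 32.0%.

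Leaving out 1 library at a time, 19 of the 28 Vector calls, 5 of the 23 B4-4 calls and 8 of the 27 Addback calls were kept throughout. In B4-4, omitting B4-4 EDTA 1 left 6 calls and omitting B4-4 EDTA 2 left 8. In Addback it was 8 without Addback NA 1 and 16 without Addback NA 2. Addback EDTA 2, the library whose description carries a lane label that no other has, left 16, all higher, with a median of 0.41, when it was removed. When the 4 B4-4 libraries were fitted alone, 0 of the 45 were called by edgeR, with 23 at an unadjusted p under 0.05, while DESeq2 on all libraries called 24.

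The difference between the EDTA effects was then tested directly. Between B4-4 and Vector, 37 of the 45 had a more positive EDTA effect in B4-4 and 1 a more negative one, where 14.4% and 12.6% of all tested genes were called. The median difference over the 45 was 0.92 on the log2 scale. KIF14 had the largest difference, 1.84 (SE 0.21, adjusted p = 0.00013), followed by CKAP2L at 1.69 and KIF23 at 1.62. CDC25B was the exception, at -0.75 (SE 0.15, adjusted p = 0.00365).

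Between Addback and Vector, 39 had a more positive effect in Addback and 1 a more negative one, against 13.4% and 10.8% of all tested genes, with a median difference of 1.0. ESPL1, at 1.75, and NDC80, at 1.68 (SE 0.16, adjusted p = 3.58e-05), led, and CDC25B was again the exception, at -0.50 (SE 0.15, adjusted p = 0.0302), a call lost without Addback EDTA 2, Vector EDTA 2 or any one of the NA libraries of Addback or Vector or the B4-4 EDTA libraries. Both comparisons use the same Vector libraries. Single omissions left 27 to 41 and 34 to 43 calls. CCNB2, KIF11 and ASPM passed in neither.

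Addback and B4-4 were compared in the same way, and 1 gene was more positive and 1 more negative, against 4.22% and 4.57% of all tested genes. PTTG1 rose in Addback and not in B4-4, a difference of 0.72 (SE 0.17, adjusted p = 0.0233), and CKAP2L had -0.63 (SE 0.17, adjusted p = 0.0366). The PTTG1 call was lost without Addback NA 1, B4-4 EDTA 1 or B4-4 EDTA 2, and the CKAP2L call without any one of the Addback, B4-4 EDTA or Vector NA libraries. The count ran from 0 without Addback NA 1, B4-4 EDTA 1 or B4-4 EDTA 2 to 14 without B4-4 NA 1, and was 1 without Addback EDTA 2, Addback NA 2, Vector NA 1 or Vector NA 2. It was 0 with the 8 libraries of Addback and B4-4 fitted alone, where 7 were under an unadjusted p of 0.05.

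In the NA libraries, the summed level of the G2/M genes was highest in Vector, lower in B4-4 and lowest in Addback. B4-4 NA was below Vector NA for 22 of the 45, against 3.78% of all tested genes, with a median of -0.40. Those called higher numbered 0, by edgeR and by DESeq2 and also at an unadjusted p under 0.05. NEK2, at -0.93 (SE 0.11, adjusted p = 0.00131), and TPX2, at -0.60 (adjusted p = 0.00253), were among the 4 calls kept without any single library. Only 4 were left without Vector NA 1 and 4 without Vector NA 2, and 0 by edgeR with the 4 libraries fitted alone, where 28 had an unadjusted p under 0.05.

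Addback NA was below Vector NA for 37 of the 45, against 18.1% of all tested genes, with a median of -0.70. None was called higher, 0 by both tools and at an unadjusted p under 0.05. PLK1 was 3.59 times lower, log2 -1.84 (SE 0.10, adjusted p = 2.15e-07), and HMMR, a spindle protein, 2.90 times lower, log2 -1.53 (SE 0.15, adjusted p = 1.97e-05). HMMR, singled out after its values were seen, was at 196 and 175 CPM in Vector NA, 174 and 134 in Vector EDTA, 115 and 131 in B4-4 NA, 138 and 136 in B4-4 EDTA, 63.8 and 64.3 in Addback NA, and 95.7 and 129 in Addback EDTA. Addback NA was thus the low group for HMMR as for PLK1. FOXM1 (-0.13, adjusted p = 0.257), BUB3, MAD2L1, ECT2, SPC25, KIF11, ASPM and CDC25B did not pass.

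Addback NA against B4-4 NA gave 17 lower and 1 higher, against 12.3% and 11.3% of all tested genes, with a median of -0.29. PLK1 again led at -1.26 (SE 0.10, adjusted p = 9.72e-06), then HMMR at -0.94 and AURKA at -0.75. The gene that was higher was CENPF, a large kinetochore protein, at 0.38 (adjusted p = 0.0347), whose B4-4 NA libraries held 442 and 333 CPM and whose Addback NA libraries held 504 and 504. Its call was lost without any one of the other libraries apart from B4-4 NA 1 and the Addback EDTA pair. The count was 3 without Addback NA 1, 6 without Addback NA 2 and 3 with the 4 libraries fitted alone.

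With EDTA, Vector had the lowest summed level of the 3 derivatives, and Addback remained below B4-4. B4-4 EDTA was above Vector EDTA for 32 of the 45 and below it for 4, against 22.9% and 20.4% of all tested genes, with a median of 0.44. KIF23, at 1.22 (SE 0.11, adjusted p = 6.2e-06), AURKB, at 1.16, and ANLN, at 1.06, were the largest. The 4 lower genes were CDC25B, at -0.83 (SE 0.11, adjusted p = 9.6e-05), CDC25C, at -0.56, NEK2, at -0.38, and PTTG1, at -0.36. These 4 have the lowest correlations with the mean of the other genes, negative for CDC25B. The same libraries entered those correlations, so this is not a separate observation. The calls of NEK2 and PTTG1 were lost without B4-4 EDTA 1, B4-4 EDTA 2 or Vector EDTA 1, and that of PTTG1 also without Vector EDTA 2. Without B4-4 EDTA 2, 23 genes passed.

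Addback EDTA was above Vector EDTA for 23 and below it for 3, against 16.1% and 14% of all tested genes, with a median of 0.32. FOXM1, at 0.64 (SE 0.09, adjusted p = 0.000282), and AURKB, at 0.77, had the smallest p-values. PLK1 stayed lower, at -0.59 (SE 0.10, adjusted p = 0.00111), with HMMR at -0.45 (adjusted p = 0.0381) and CDC25B at -0.42 (adjusted p = 0.0106). The HMMR call was lost without Addback EDTA 1, Vector EDTA 1 or either Addback NA library, and the CDC25B call without Addback EDTA 2 or Vector EDTA 2. Without Addback EDTA 2, 15 genes passed, and 17 with the 4 libraries fitted alone.

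Between Addback EDTA and B4-4 EDTA, 5 of the 45 were lower in Addback and 1 higher, against 7.54% and 6.54% of all tested genes, and a median of -0.18. The lower genes were PLK1 at -1.12 (SE 0.10, adjusted p = 2.98e-05), KIF23 at -0.53, CKAP2L at -0.48, ANLN at -0.44 and AURKB at -0.38, and the higher one was CDC25B at 0.40. Only the PLK1 call was kept without every single library in turn. The count was 2 without Addback EDTA 1, 2 without B4-4 EDTA 1 and 1 without B4-4 EDTA 2, and it was 15 without B4-4 NA 1 and 16 without B4-4 NA 2, libraries that enter this comparison through the shared estimate of spread. PLK1 therefore separated Addback from B4-4 and Vector in the NA libraries and in the EDTA libraries. Its exons overlap those of AC008870.3 and ERN2 on the other strand, with a largest overlap of 553 bases. The strand setting of the counting is not known here.

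**Figure D4:**
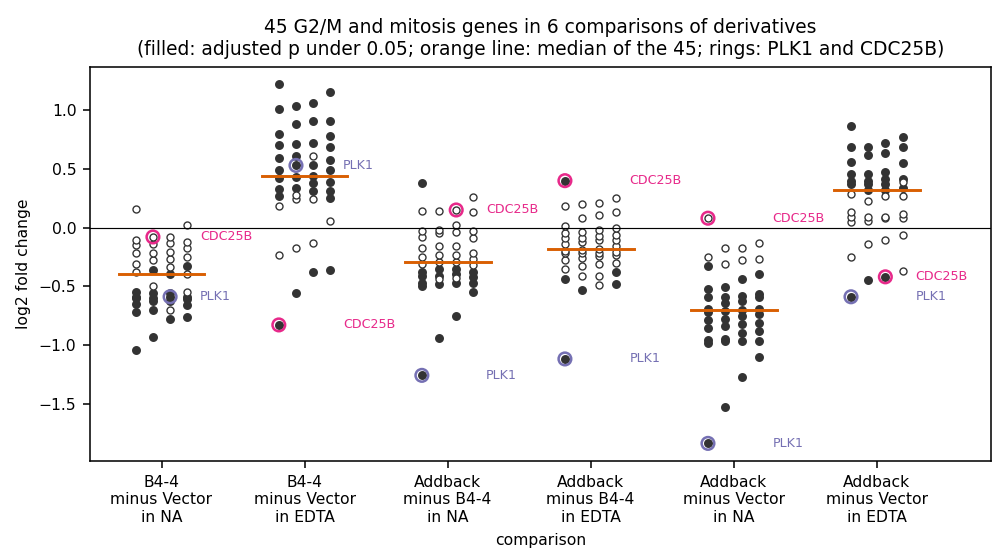
Log2 fold change (vertical axis) of each of the 45 genes in the 6 comparisons between derivatives (horizontal axis), with filled points for an adjusted p under 0.05, an orange line at the median and rings on PLK1 and CDC25B. The medians are below 0 in NA and, against Vector, above 0 in EDTA, and PLK1 is the lowest point in each of the 4 comparisons of Addback with B4-4 or Vector.

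Marker sums differed between groups as well. The 9 fibroblast markers summed to 15.6 to 16.9 CPM in Vector NA, 30.9 to 31.3 in Vector EDTA, 18.5 to 30.3 in B4-4 NA, 15.5 to 15.9 in B4-4 EDTA, 56.4 to 57.0 in Addback NA and 37.6 to 65.9 in Addback EDTA. Of the 5 that were tested, all 5 were higher in Addback NA than in Vector NA, against 17.9% of all tested genes. POSTN and DCN, both secreted matrix proteins, led, while COL1A2, COL3A1 and THY1 were at or near 0 in every library. The 8 basal epithelial markers summed to 14778 to 14856 CPM in Vector NA and 10820 to 11191 in Vector EDTA, where 2 fell, and to 11184 to 12351 and 14498 to 15160 CPM in B4-4 NA and EDTA, where 2 rose and 1 fell. In Addback, where 2 rose, the sums were 9694 to 10196 and 9910 to 10907 CPM. Beside these basal counts, 8.98% of all tested genes fell in Vector, 9.88% rose and 10% fell in B4-4, and 8.64% rose in Addback. The 8 blood and endothelial markers summed to 38.2 to 40.1 CPM in Vector NA, 32 to 34.8 in Vector EDTA, 21.2 to 39.3 in B4-4 NA, 10.3 to 11 in B4-4 EDTA, 78.5 to 85.9 in Addback NA and 19.7 to 69.3 in Addback EDTA. Nearly all of this was CD14 and PECAM1. CD14 was at 54.8 and 47 CPM in Addback NA, 35.1 and 8.3 in Addback EDTA, and 6.92 to 14.5 elsewhere. The part of these marker lists in the G2/M differences was not tested.

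Within groups, 2 pairs of libraries lay further apart than the rest. The median fold between replicates over the 45 genes was 1.15 in B4-4 NA and 1.11 in Addback EDTA, and 1.03 to 1.08 in the others. ITGB4, outside the 45, was at 182 CPM in library 1 of B4-4 NA and 395 CPM in library 2. In B4-4 NA long transcripts tended to be lower in library 2 and short ones higher, from CENPE at -0.89 to CCNB2 at 0.66 on the log2 scale. Spearman's rho between exon length and that gap was -0.67 over the 45 genes, which share both libraries, and -0.21 over 15706 genes. The sign was the same, over the 45 and over all genes, in B4-4 EDTA (-0.42 and -0.09), Vector NA (-0.32 and -0.02), Vector EDTA (-0.26 and -0.19) and Addback NA (-0.22 and -0.12), with smaller gaps between the libraries, and opposite in Addback EDTA (0.32 and 0.13). The EDTA effect in B4-4 had rho 0.44 with length over the 45 and 0.16 over all genes, against -0.09 and -0.03 in Vector, and the difference of EDTA effects between Addback and B4-4 had -0.58 and -0.17. The part of length in the B4-4 values was not tested, and with both B4-4 NA libraries out of the fit, Vector and Addback gave 36 and 35 EDTA calls.

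**Figure D5:**
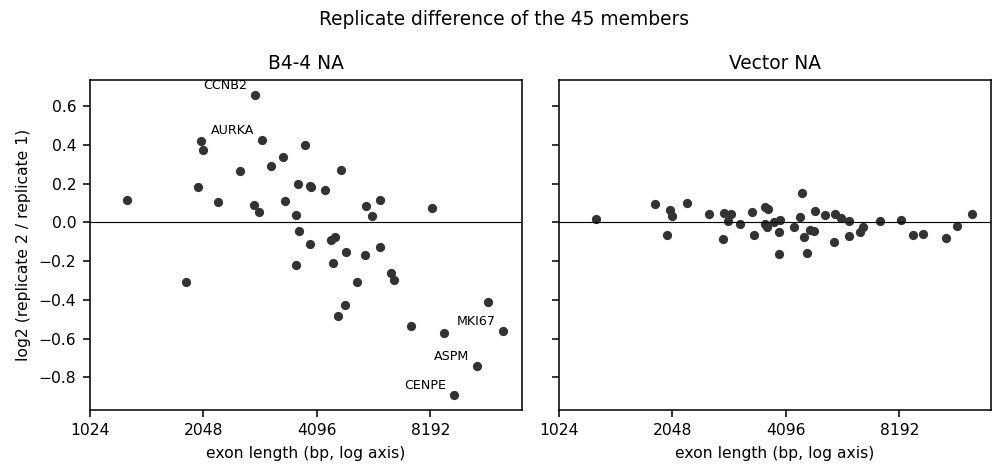
Difference between the replicates of a group (library 2 minus library 1, log2 CPM, vertical axis) against exon length (horizontal axis, log scale). Points are the 45 genes, with B4-4 NA in the left panel and Vector NA in the right panel. In B4-4 NA the points slope down, from CCNB2 at 0.66 to CENPE at -0.89, and the spread is narrower in Vector NA.

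Over the 12 libraries the 45 genes varied largely together. The correlation of each gene with the mean of the other 44, on log2 CPM, had a median of 0.83 and was above 0.9 for 10 genes, with TPX2 and KIF4A at 0.96. The lowest were CDC25B at -0.61, CDC25C at 0.35, PTTG1 at 0.39 and NEK2 at 0.45. These are descriptions over libraries that fall into 6 groups. Per kilobase of exon, mean levels ran from 5.65 CPM for ESPL1 to 102 CPM for CCNB1, which are the 58.7 and 97.7 percentiles of the tested genes.

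Among 10465 other genes averaging 5 CPM or more, the 5 whose levels were most like the mean of the 45 were KNSTRN (r = 0.978), KMT5A (0.974), PHF12 (0.965), ZBTB38 (0.963) and SIAH2 (0.961), over the same 12 libraries. KNSTRN, a kinetochore and spindle protein, was at 85.4 and 87.7 CPM in Vector NA, 40.3 and 45.1 in Vector EDTA, 47.7 and 47.7 in B4-4 NA, 80.3 and 75.8 in B4-4 EDTA, 36.4 and 39.1 in Addback NA, and 58.5 and 66.0 in Addback EDTA. KMT5A, which methylates histone H4, was at 102 and 104 CPM in Vector NA, 57.7 and 55 in Vector EDTA, 64.3 and 63.6 in B4-4 NA, 83.2 and 91 in B4-4 EDTA, 47.7 and 55.2 in Addback NA, and 65.8 and 77.5 in Addback EDTA. In both, EDTA libraries lay below NA libraries in Vector and above them in B4-4 and Addback.

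A further list held 54 other genes of G2 and mitosis. With EDTA, 32 of them fell in Vector, 24 rose and 1 fell in B4-4, and 31 rose in Addback, with medians of -0.57, 0.37 and 0.47. Of all tested genes, 8.98% fell in Vector, 9.88% rose and 10% fell in B4-4, and 8.64% rose in Addback. In Vector HJURP, the CENPA chaperone, fell by -1.57 (SE 0.11, adjusted p = 1.13e-05) and LMNB1, lamin B1, by -1.26. In B4-4 GTSE1, which binds microtubules, rose by 0.79 and LMNB1 by 0.62. In Addback CDCA3 rose by 0.87 and CCNF, cyclin F, by 0.77.

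Lists of known regulators of the group had few calls. Of 12 DREAM and MYB-MuvB genes, 1 rose and 1 fell with EDTA in Vector, 2 rose and 2 fell in B4-4, and 2 rose and 1 fell in Addback. Of all tested genes, 6.36% rose and 8.98% fell in Vector, 9.88% and 10% in B4-4, and 8.64% and 8.29% in Addback. Whether such small counts differ from these shares was not tested. MYBL2, the activator B-MYB, was called in every derivative, at -0.47 in Vector (adjusted p = 0.0164), 0.47 in B4-4 (adjusted p = 0.0153) and 0.58 in Addback (adjusted p = 0.00561). RBL2, the repressor p130, fell in B4-4 by -0.54 (adjusted p = 0.00214) and in Addback by -0.30 (adjusted p = 0.0386). Of 16 genes of the anaphase-promoting complex and its regulators, 1 rose and 1 fell in Vector, 3 rose and 1 fell in B4-4, and 2 rose in Addback. The same shares of all tested genes apply, and a difference from them was again not tested. FZR1, the CDC20-like activator CDH1, changed by -0.39, 0.58 and 0.62.

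Of 13 genes for CDK inhibitors and G2 brakes, 11 were tested: with EDTA 2 rose and 2 fell in Vector, 2 rose and 3 fell in B4-4, and 1 rose and 2 fell in Addback, beside shares over all tested genes of 6.36% and 8.98%, 9.88% and 10%, and 8.64% and 8.29%. CDKN1B, the inhibitor p27, rose with EDTA in Vector by 1.10 (SE 0.15, adjusted p = 0.000618) and fell in B4-4 by -1.0 (SE 0.15, adjusted p = 0.00135). BTG2, an antiproliferative gene, rose in Vector by 0.72 (adjusted p = 0.00381) and fell in B4-4 by -2.07 (adjusted p = 9.76e-06) and in Addback by -0.88 (adjusted p = 0.00129). PKMYT1, a kinase that holds CDK1 inactive, fell in Vector by -0.86 and rose in B4-4 and Addback by 0.56 and 0.74. CDKN1A, the p53 target p21, did not pass, with -0.52, 0.42 and -0.03 (adjusted p = 0.0562, 0.0956 and 0.93).

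Of the 24 genes of G1/S and DNA replication, 12 fell with EDTA in Vector, 7 rose in B4-4 and 11 rose in Addback. The shares of all tested genes were 8.98%, 9.88% and 8.64% in that order. Among the 24 was RRM2, the ribonucleotide reductase subunit, at -1.28, 0.68 and 1.05. Between derivatives in the NA libraries, more of the 24 were higher than lower in B4-4 and Addback against Vector, where more of the G2/M genes were lower. In B4-4 NA 10 of the 24 were higher than in Vector NA, against 3.38% of all tested genes, with a median of 0.41. In Addback NA 14 were higher and 4 lower, against 17.9% and 18.1%, with a median of 0.43, so the share lower was near that of all genes. PCNA, the replication clamp, was higher by 0.87 (SE 0.09, adjusted p = 0.000253) and 0.83 (SE 0.09, adjusted p = 2.49e-05), and CDC6, which licenses origins, by 0.68 and 1.16. RRM2 was among the 4 lower in Addback NA, at -0.67. The difference between the lists was not itself tested.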

How the data were processed

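RNA-seq was deposited as whole-number read counts per Ensembl gene for 12 libraries; per the labels' protocols, polyA RNA went into stranded libraries read as paired ends. The submitters' processing notes name TopHat2 2.1.1, SAMtools 1.4.1 and featureCounts 1.5.3, and list 3 build names (GRCh38, hg19, hg38) with no roles. Which annotation and strand setting featureCounts used is not stated, so reads from antisense partners cannot be told apart. Exons of FOXM1, PLK1, CKAP2L, PRC1, CDC25C and CCNA2 overlap such partners, with largest overlaps of 254 to 781 bases. Those of KIF23, KIF2C, KIF20A, HMMR, ANLN, KIF4A, KIF18A, MAD2L1 and NUF2 do so by at most 231 bases. On their own strand, BUB1B overlaps BUB1B-PAK6 and CENPA overlaps SLC35F6. Symbols and GRCh38 coordinates came from GENCODE release 29, and promoter windows from RefSeq.

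In edgeR 4.0.16 (R 4.3.3), genes were filtered with filterByExpr, which left at least 99.87% of each total, libraries were scaled with TMM factors, and the means of 6 groups were estimated in 1 quasi-likelihood fit (robust) of the 12 libraries, which thus share an estimate of spread. In all, 12 contrasts were tested with Benjamini-Hochberg adjustment over all 15749 genes. SE is the absolute log2 fold change over the square root of F. CPM uses TMM-scaled totals. The fit was tested on simulated data. Alternatives were upper-quartile and RLE scaling, no filter, DESeq2 1.42.0, a replicate block, the compared groups alone, each library left out, and, chosen after seeing the data, both B4-4 NA or both Addback EDTA libraries left out.

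The genes, their roles and the 8 further lists were chosen with earlier results of these data known. Values per library are given for the 4 smallest p-values of each EDTA comparison within a derivative, for genes called there against the majority, for the 4 least correlated with the rest, and for 1 or 2 genes per role chosen for what they do. In other lists, up to 4 called genes with the smallest p, plus CDKN1A, PKMYT1, FZR1 and RRM2 followed across derivatives, are named.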

Additional observations from a re-analysis of the deposited data

Results flagged for a closer look

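These results were picked out because the effect of EDTA differed between derivatives by a test of the difference itself, with edgeR's quasi-likelihood test. Between B4-4 and Vector this held for 38 of the 45 genes. KIF23 differed by 1.62, CKAP2L by 1.69, TPX2 by 1.18 and KIF14 by 1.84 on the log2 scale, each more positive in B4-4, and CDC25B by -0.75. Between Addback and Vector it held for 40 genes, among them NDC80 at 1.68, TPX2 at 1.16, BUB1 at 1.17 and KIF23 at 1.38, with CDC25B at -0.50. Between Addback and B4-4 it held for 2 genes, PTTG1 at 0.72 and CKAP2L at -0.63.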

How the results depend on the processing

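The medians of the 45 kept their sign under every alternative, and no main direction of the calls reversed. Single genes with a difference near 0 need not keep their sign. An example is NEK2 with EDTA in B4-4, at -0.05, where NA and EDTA libraries overlapped. With the compared groups fitted alone, the calls among the 45 were 0 for EDTA in B4-4, 0 for B4-4 against Vector in NA, 3 for Addback against B4-4 in NA, 17 for Addback against Vector in EDTA and 0 for the difference of EDTA effects between Addback and B4-4; such fits hold fewer libraries. With no filter on low counts, Addback against B4-4 in EDTA gave 10 and that difference of EDTA effects 6. Without both B4-4 NA libraries, Addback against B4-4 in EDTA gave 17. The cause of the last 3 was not tested. Each library left out in turn gave 6 to 31 calls for EDTA in B4-4 and 8 to 35 in Addback. Among NA libraries it gave 4 to 25 for B4-4 against Vector and 3 to 24 for Addback against B4-4. Among EDTA libraries it gave 23 to 39 for B4-4 against Vector, 1 to 16 for Addback against B4-4 and 15 to 33 for Addback against Vector. The difference of EDTA effects between Addback and B4-4 gave 0 to 14, and where it was 0, 5 to 7 had an unadjusted p under 0.05, and DESeq2 on all libraries called 3. Such fits assume that a lone library varies like the other groups.

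Replicate numbers did not pair the libraries: deviations of same-numbered libraries correlated by -0.04 to 0.06 over 15 pairs of groups. With a replicate block, 30, 25 and 27 genes were called for EDTA in Vector, B4-4 and Addback, and no count moved by over 1.5 times. Upper-quartile scaling moved the median of all genes by up to -0.104, for the EDTA effect in B4-4 minus that in Vector, where 33 of the 45 were called. Each of the 45 had at least 263 counts in every library, and each group had 2 libraries; how far either limits the calls was not compared.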
